A study of Mus musculus with 8 samples.

Results

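Adenosine and cyclic AMP pathway genes were followed on 8 Illumina MouseRef-8 v2.0 beadchip arrays of mouse CD4 T cells. All 21 probes whose symbol in the non-normalized table was Nt5e, Entpd1, Adora2a, Pde3b, Pde4b, Pde4d, Pde7a, Prkar1a, Creb1 or Crem were taken, which is 10 genes and 21 of 25697 probes. Each array held total RNA of sorted CD4 T cells from the mesenteric lymph nodes, the nodes that drain the intestine, of Mir-21-/- mice (KO) or their wild-type littermates (WT). The groups were KO and WT CD25High cells stimulated for 30 min through CD3 and CD28 by antibodies, KO and WT CD25High cells left unstimulated, KO and WT CD45High cells stimulated in that way, and KO and WT CD45High cells left unstimulated. Each of the 8 combinations was measured on 1 array. CD25, the alpha chain of the interleukin 2 receptor, is abundant on regulatory T cells, and the sources used here do not give the CD45 isoform of the other sort. The deletion is given for the mice as a whole, not for T cells alone, and age, strain background and the number of mice per array are not given either. The study asked how gene expression in these T cells differs between the genotypes.

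Extracellular adenosine is made in steps: CD39, the product of Entpd1, converts ATP and ADP to AMP, and CD73, the product of Nt5e, converts AMP to adenosine. The adenosine receptor encoded by Adora2a couples adenosine to adenylate cyclase, and the cyclic AMP that is formed binds the regulatory subunits of protein kinase A and is broken down by phosphodiesterases. Protein kinase A phosphorylates CREB-family factors at cyclic AMP response elements. Regulatory T cells of the mouse are known for carrying CD39 and CD73 on their surface, and a rise of cyclic AMP is known to dampen T cell activation.

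The microRNA named in the KO label is shown first, since the genotypes differ in it by that label. Its mature sequence in RefSeq lies at chr11:86584120-86584141 on the minus strand of GRCm38.p6, and the capitals mark the seed, bases 2 to 8.
mmu-miR-21a-5p: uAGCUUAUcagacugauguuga
No probe of the table used here carries the symbol Mir21, so the deletion itself was not checked.

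Values are log2 intensities after background correction and quantile normalization, a level for each probe on each array, and a probe was counted as detected at a detection p-value under 0.01. Between 9208 and 10477 probes were detected per array, and the median number of beads behind a probe was 38 to 40. The stimulated KO CD25High array correlated least with the rest, at a median of 0.888, against 0.938 to 0.965 for the other arrays. All 7 CD4 T cell markers were detected on all arrays and Cd8a on none, although Cd8b1 was detected on all. The summed level of 6 regulatory T cell markers was 8230 to 12710 in CD25High cells and 741.8 to 2269 in CD45High cells. Il2ra, which encodes the CD25 of the sort, is part of that sum. Of 6 early response genes listed as signs of stimulation, Nr4a1 was not detected, and the summed level of the list was 4495 to 7074 in stimulated cells and 5461 to 8395 in unstimulated cells. Of its 5 tested genes 1 passed, Ier2, which fell by 0.88 on the log2 scale, and none was called as higher. Of the 6 regulatory T cell markers 2, Il2ra and Tnfrsf18, were called as higher in stimulated cells and 1, Nrp1, as lower (-1.04 on the log2 scale). Il2ra, which is also an activation gene, was 1.45 higher (log2, SE 0.18, limma, Benjamini-Hochberg adjusted p = 0.009061). Il2ra was not detected on either unstimulated CD45High array, so that difference is taken partly against background. In CD25High cells, where it was detected throughout, it read 9.46 (KO) and 9.83 (WT) when stimulated and 8.61 (KO) and 8.28 (WT) when unstimulated. Arrays have no repeats, so p-values measure how alike a difference was across 4 pairs of matched combinations, not the spread between mice, and precision is limited by how few arrays there are.

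Of the 10 genes, 7 had a probe detected on at least 2 of 8 arrays, and these 11 probes entered the tests beside all others, 11047 in total. Entpd1 was represented by 1 probe, which was detected on no array. Adora2a was detected on the stimulated WT CD25High array alone, at a level of 4.87. Pde3b, a phosphodiesterase that cleaves both cyclic AMP and cyclic GMP, was detected on the stimulated WT CD45High array alone, at 4.90. The probes of these 3 genes have only an upper limit on the remaining arrays, where the lowest detected levels lay between 4.69 and 5.02. No comparison was made of them. Each of the 3 genes has 1 probe, and Pde4d, Creb1 and Crem also had undetected probes although others of their probes were detected. A probe without detection thus does not show that the transcript was absent. The 8 probes of Entpd1, Pde4d, Creb1 and Crem that were detected nowhere lay between 4.11 and 4.51. Which transcripts the separate probes of Creb1, Crem, Nt5e and Pde4d read was not known from the files. The plot of levels by array shows each tested probe.

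**Figure D1:**
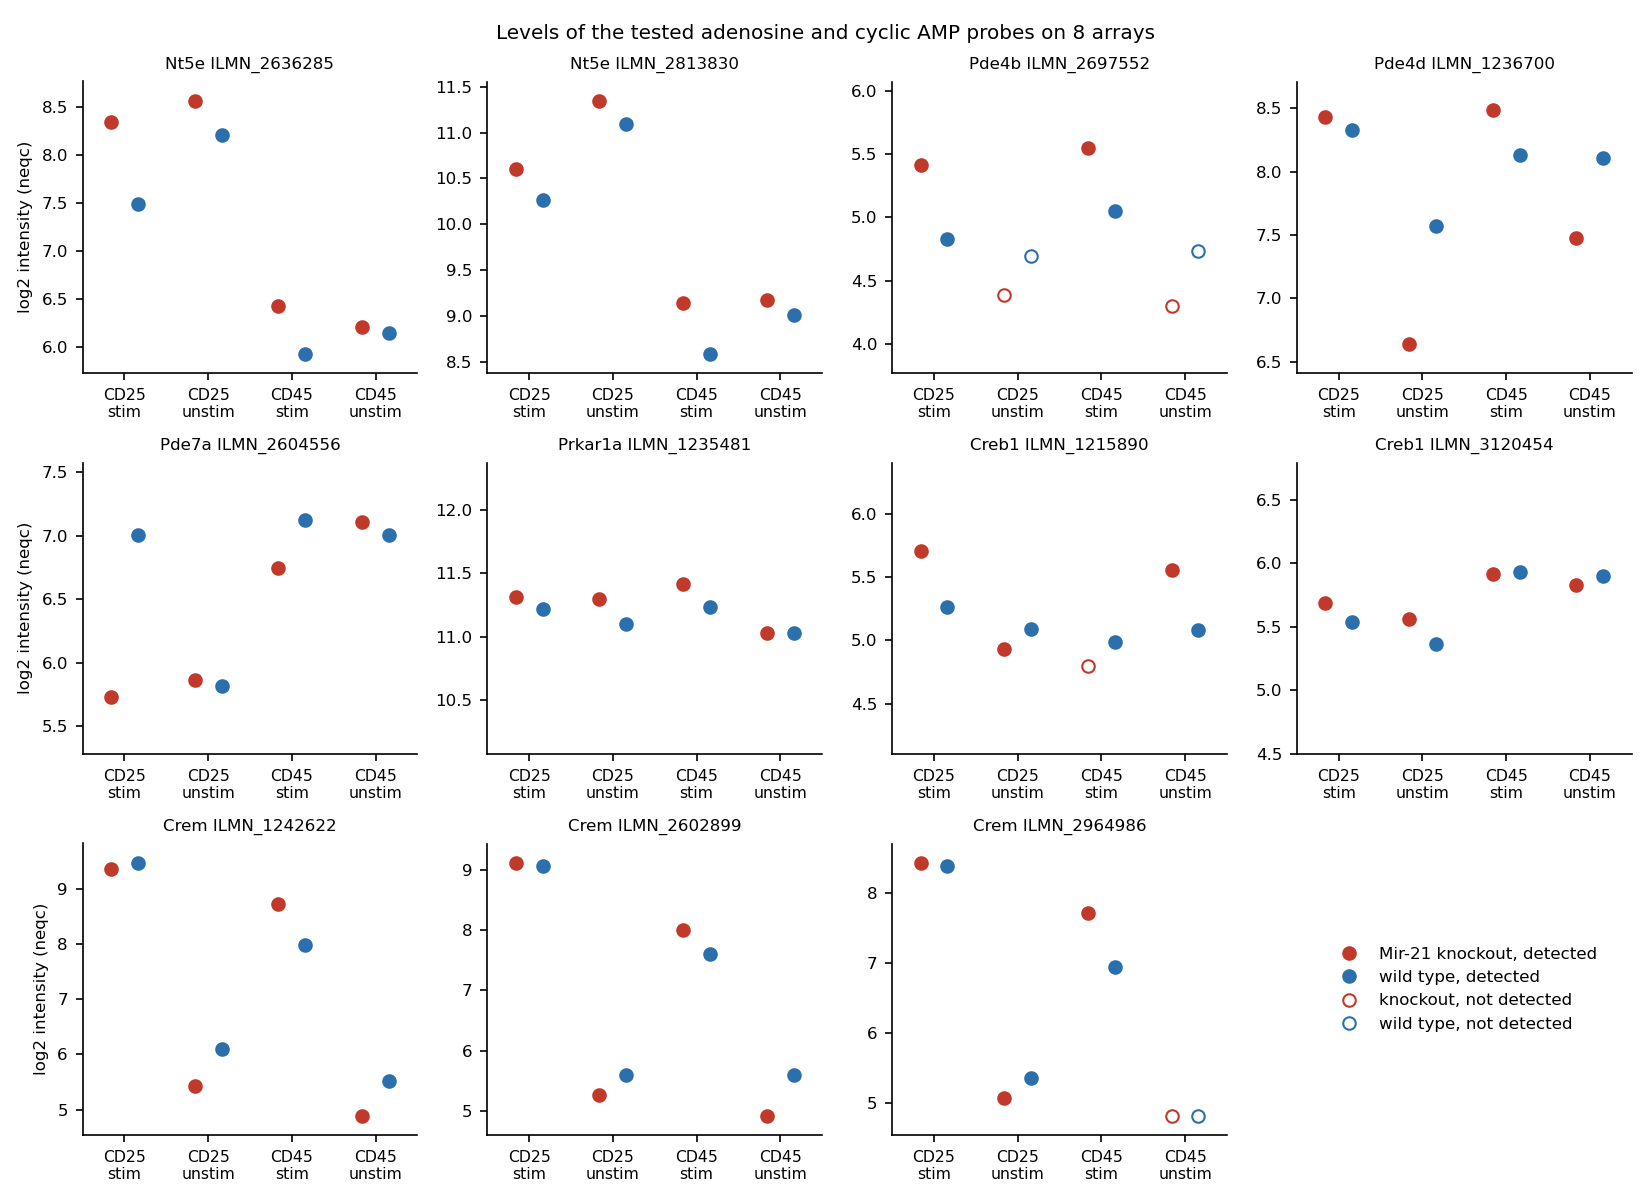
Log2 intensity of the 11 tested probes on 8 arrays, with KO (red) left of WT (blue) in each population and state; filled points were detected and open points were not. The 3 Crem probes were high on the 4 stimulated arrays, and the 2 Nt5e probes were high on the 4 CD25High arrays.

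Stimulated cells were set against unstimulated cells to ask which steps of the pathway changed within 30 min of receptor engagement. Crem rose in all 4 pairs, and it was the 1 gene of the 7 with tested probes that passed the test. All 3 of its tested probes rose, against 16% of all probes called in either direction and 7.93% called as higher. Crem encodes activator and repressor isoforms of the CREB family, among them the inducible repressor ICER.

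Crem probe ILMN_1242622 read 9.35 (KO) and 9.48 (WT) in stimulated CD25High cells and 8.73 (KO) and 7.98 (WT) in stimulated CD45High cells. Its levels in unstimulated cells were 5.43 (KO) and 6.09 (WT) in CD25High and 4.88 (KO) and 5.51 (WT) in CD45High cells. The 4 stimulated arrays lay above the 4 unstimulated arrays without overlap, and within the stimulated state both CD25High arrays lay above both CD45High arrays. The mean difference was 3.40 on the log2 scale, 10.59-fold (SE 0.25, limma, Benjamini-Hochberg adjusted p = 0.00472). This was the highest of the 11047 differences. Probes ILMN_2602899 and ILMN_2964986 ranked 3 and 8, with differences of 3.11 (SE 0.29, adjusted p = 0.006282) and 2.85 (SE 0.21, adjusted p = 0.00472) by the same limma fit. The last of these probes was not detected on either unstimulated CD45High array, where it read 4.82 in KO and 4.82 in WT cells.

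The size of the Crem rise varied between the pairs. By probe ILMN_1242622 it was 15.2-fold in KO CD25High cells, 14.4-fold in KO CD45High cells, 10.4-fold in WT CD25High cells and 5.53-fold in WT CD45High cells. Probe ILMN_2602899 gave 14.5-fold, 8.55-fold, 11-fold and 4.03-fold in the same order of pairs. Probe ILMN_2964986 gave 10.2-fold in KO CD25High and 8.1-fold in WT CD25High cells, and against the lowest detected level of the unstimulated array it was at least 7.28-fold higher in KO CD45High and at least 4.16-fold higher in WT CD45High cells. The WT CD45High pair had the smallest rise by the 2 probes that were detected on all arrays. Before normalization the bead intensity of ILMN_1242622 was 914 in stimulated and 138.4 in unstimulated KO CD25High cells, with standard errors over the beads of 39.9 and 4.88. Leaving out the WT CD25High pair kept the difference at 3.41 but ended the call (adjusted p = 0.0585 in limma), and 0 of 11047 probes were then called. Without background correction the difference was 2.00 and stayed called (adjusted p = 0.00811). The summed level of the 7 CD4 T cell markers was 12460 to 24650 in stimulated and 23700 to 25940 in unstimulated cells, lowest on both stimulated CD25High arrays, and none of the 7 genes was called. The summed level of the CD8 T and NK cell markers did not overlap, with 983.3 to 1151 in stimulated and 1314 to 1458 in unstimulated cells, and 2 of 4 tested genes, Cd8b1 and Nkg7, were called as lower, Cd8a and Ncr1 being undetected. Of the myeloid and dendritic cell markers 1 of 5 tested genes, Lyz2, was lower, with sums of 193.3 to 684 in stimulated and 330 to 619.4 in unstimulated cells and Itgam and Itgax undetected. The part of these markers' cells in the stimulation differences was not tested.

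**Figure D2:**
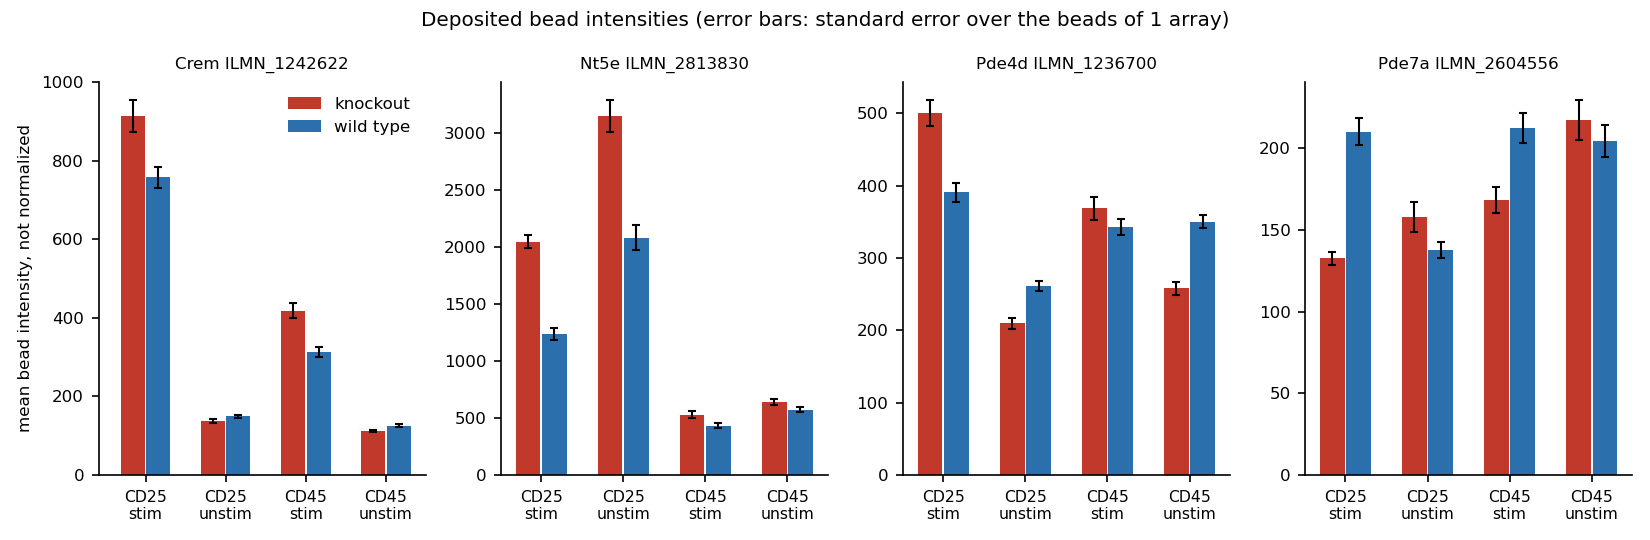
Deposited mean bead intensity, not normalized, of 1 probe each of Crem, Nt5e, Pde4d and Pde7a on 8 arrays, with KO (red) left of WT (blue); error bars are the standard error over the beads of 1 array. Crem stood at 914 and 758.3 on the stimulated CD25High arrays of KO and WT mice, and Nt5e at 3146.9 and 2081.2 on the unstimulated ones. Without normalization these values do not compare the genotypes. The normalized log2 levels were 9.35 (KO) and 9.48 (WT) for Crem and 11.35 (KO) and 11.10 (WT) for Nt5e.

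The other members did not pass the test for stimulation. Pde4d and Pde4b encode phosphodiesterases specific for cyclic AMP that limit its level in T cells. Pde4d read 8.43 (KO) and 8.33 (WT) in stimulated CD25High and 8.48 (KO) and 8.13 (WT) in stimulated CD45High cells, against 6.64 (KO), 7.57 (WT), 7.48 (KO) and 8.11 (WT) in the matching unstimulated cells. The groups did not overlap, by a margin of 8.13 against 8.11. The mean difference was 0.90 (SE 0.27, limma adjusted p = 0.07078), and leaving out the WT CD45High pair brought it to 1.19 and past the threshold (adjusted p = 0.0465).

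Pde4b was detected on all 4 stimulated arrays, at 5.41 (KO) and 4.83 (WT) in CD25High and 5.55 (KO) and 5.05 (WT) in CD45High cells, and on no unstimulated array. There it read 4.39 (KO) and 4.69 (WT) in CD25High and 4.30 (KO) and 4.74 (WT) in CD45High cells, below or near the lowest detected levels. By group means stimulated cells were at least 1.35-fold higher, the bound being taken against the lowest detected level of each array. The measured difference of 0.68 did not pass (limma adjusted p = 0.07839). By pair the measured rise was 2.03-fold in KO CD25High and 2.37-fold in KO CD45High cells. It was 1.1-fold in WT CD25High and 1.25-fold in WT CD45High cells, so the WT pairs lay below that bound. Across the tested probes, 21% had groups of 4 arrays that did not overlap between the states, and so had 5 of the 11 member probes, all higher in stimulated cells.

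RefSeq (GRCm38.p6) was searched for the cyclic AMP response element in 15 windows of 6 members, Nt5e, Entpd1, Pde4b, Pde4d, Prkar1a and Creb1. Each ran from 250 bases before to 50 bases after an annotated start. Windows of Crem, Adora2a, Pde3b and Pde7a are not reported here. The full element TGACGTCA was found in 588 of 32851 windows of all genes (1.79%) and its first 5 bases TGACG, on either strand, in 20.8%. The short motif also counts where it lies inside the full element. Of the members, Pde4b held the short motif in 1 of its 4 windows, at base -34 from the start, and Entpd1 held it in both of its windows. Prkar1a held the full element in 2 overlapping windows, at base -49 from the start of the one shown. In 1 more Prkar1a window the short motif lay without the full element, at base -151. The windows of Nt5e, Pde4d and Creb1 held neither. A match describes these letters and does not show a site in use. The Pde4b window with a match and a Prkar1a window with the full element are shown because they bear the motif of the family that Crem belongs to, and that of Nt5e because this gene differed between the populations. Capitals mark the matches.
Pde4b, chr4:102421305-102421604, plus strand: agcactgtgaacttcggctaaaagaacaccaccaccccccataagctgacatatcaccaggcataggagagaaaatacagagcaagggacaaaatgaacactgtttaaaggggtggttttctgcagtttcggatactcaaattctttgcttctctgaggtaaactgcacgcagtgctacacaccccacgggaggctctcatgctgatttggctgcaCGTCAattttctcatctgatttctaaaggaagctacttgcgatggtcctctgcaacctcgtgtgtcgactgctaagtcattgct
Prkar1a, chr11:109650699-109650998, plus strand: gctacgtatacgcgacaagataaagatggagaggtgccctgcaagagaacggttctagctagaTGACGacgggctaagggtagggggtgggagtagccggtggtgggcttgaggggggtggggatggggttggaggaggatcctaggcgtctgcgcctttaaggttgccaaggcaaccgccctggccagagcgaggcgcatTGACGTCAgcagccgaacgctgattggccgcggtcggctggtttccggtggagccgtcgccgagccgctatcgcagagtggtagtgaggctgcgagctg
Nt5e, chr9:88327359-88327658, plus strand: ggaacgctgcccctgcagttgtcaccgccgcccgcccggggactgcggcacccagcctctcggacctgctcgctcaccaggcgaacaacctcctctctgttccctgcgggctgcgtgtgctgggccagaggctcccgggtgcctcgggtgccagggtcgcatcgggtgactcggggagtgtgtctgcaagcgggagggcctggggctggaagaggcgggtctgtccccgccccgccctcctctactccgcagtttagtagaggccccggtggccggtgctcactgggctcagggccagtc
The Nt5e window had a GC content of 71.0%, against 47.0% in the Pde4b window and 62.7% in the Prkar1a window. The starts that these T cells use were not measured.

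Prkar1a encodes the type I alpha regulatory subunit that holds protein kinase A inactive until cyclic AMP binds. Its probe was detected on all arrays at 11.22 to 11.42 in stimulated cells and 11.03 to 11.30 in unstimulated cells. These ranges overlapped, and the difference of 0.18 did not pass (SE 0.12, limma adjusted p = 0.3485). Creb1, the constitutive activator of the family, differed by 0.10 and 0.02 by its 2 tested probes, in levels between 4.80 and 5.93.

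The remaining differences with stimulation were also uncalled. Nt5e read 10.60 (KO) and 10.26 (WT) in stimulated CD25High cells, against 11.35 (KO) and 11.10 (WT) in unstimulated CD25High cells, by probe ILMN_2813830. In CD45High cells it read 9.14 (KO) and 8.58 (WT) when stimulated and 9.18 (KO) and 9.01 (WT) when unstimulated. Stimulated cells were lower in all 4 pairs, by -0.51 on average (SE 0.17, limma adjusted p = 0.08497), but the second probe was lower in 3 of 4 pairs, with -0.23 (adjusted p = 0.3724). Pde7a, another phosphodiesterase specific for cyclic AMP, was higher in 2 of 4 pairs and lower in the other 2, with a mean difference of 0.21.

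**Figure D3:**
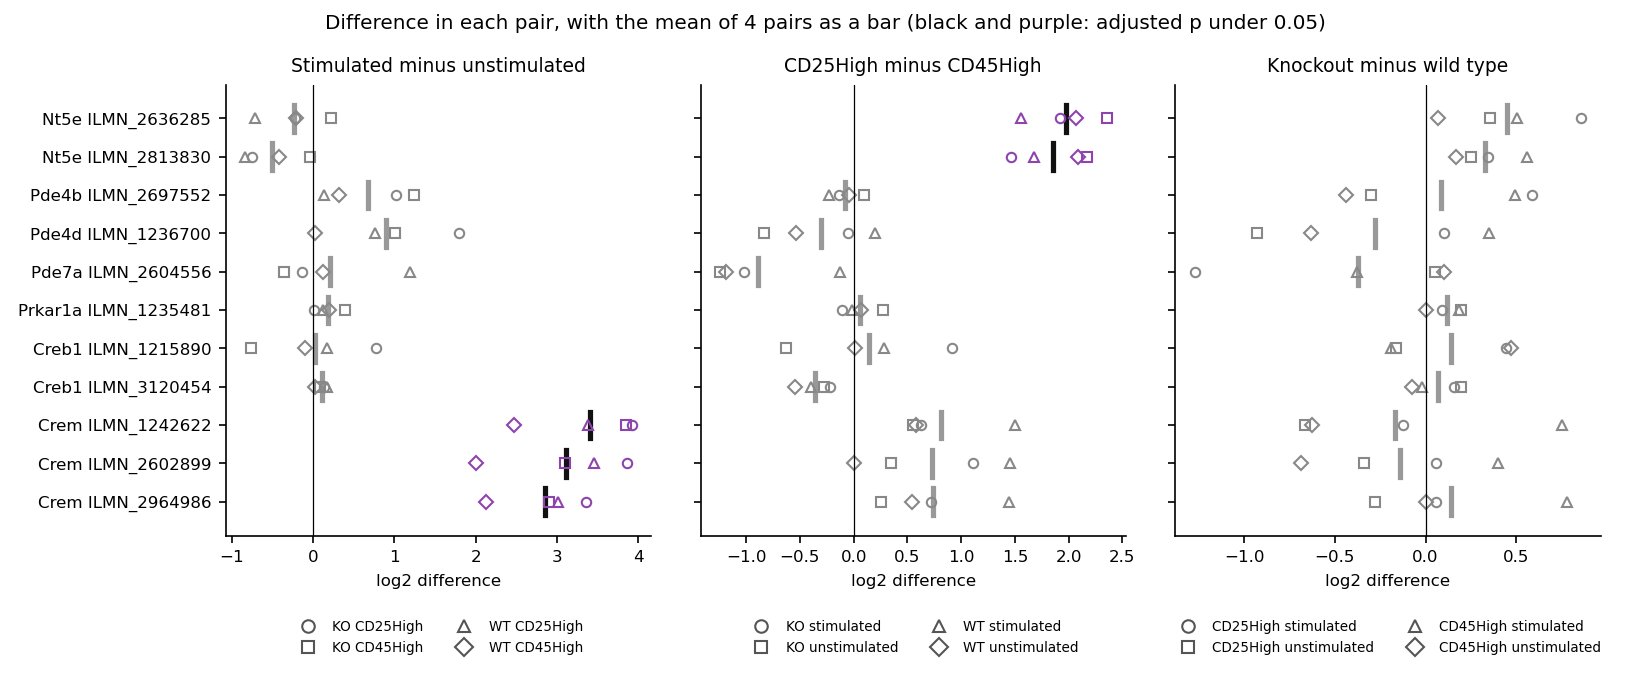
Log2 difference of each of the 11 tested probes in 4 pairs (open symbols) and its mean (bar), for stimulated minus unstimulated, CD25High minus CD45High and KO minus WT. Crem passed the test for stimulation at mean differences of 2.85 to 3.40, Nt5e for population at 1.85 and 1.97, and no member for genotype.

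CD25High cells were compared with CD45High cells to ask how the pathway differs between the sorted populations. Nt5e was higher in CD25High cells in all 4 pairs by both of its probes and was the 1 member gene of 7 that passed the test. Over all probes 8.29% were called, and 5.4% as higher. In these bulk samples, fewer cells of a type and less RNA per cell cannot be told apart.

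Probe ILMN_2813830 read 10.26 to 11.35 on the CD25High arrays and 8.58 to 9.18 on the CD45High arrays, so the populations did not overlap. The difference was 1.85, 3.61-fold (SE 0.16, limma adjusted p = 0.002204). Probe ILMN_2636285 read 8.35 (KO) and 7.49 (WT) in stimulated and 8.57 (KO) and 8.21 (WT) in unstimulated CD25High cells. Its levels in CD45High cells were 6.43 (KO) and 5.93 (WT) when stimulated and 6.21 (KO) and 6.15 (WT) when unstimulated, again without overlap. The difference was 1.97, 3.92-fold (SE 0.16, limma adjusted p = 0.001755). Both probes stayed called under all 14 alternatives run, and without background correction the second gave 1.17. The 6 regulatory T cell markers were all called as higher in the CD25High cells, among them Foxp3 by 5.66 (limma adjusted p = 2.863e-05). Il2ra, also among them, encodes CD25 and so was set apart by the sort itself. The summed level of the B cell markers was also higher, 3485 to 5609 in CD25High cells and 1106 to 1468 in CD45High cells, with 5 of 6 tested genes called as higher and Cr2 not detected on any array. The summed level of the myeloid and dendritic cell markers was 447.1 to 684 in CD25High cells and 193.3 to 433.1 in CD45High cells, with Itgam and Itgax not detected. Of their tested genes 1 of 5, Fcer1g, was called as higher. CD4 T cell markers summed to 12460 to 23920 in CD25High and 24540 to 25940 in CD45High cells, with 1 of 7 genes, Trat1, called as lower. CD8 T and NK cell markers summed to 1031 to 1458 and 983.3 to 1355, with 1 of 4 tested genes, Nkg7, called as higher. The part of these markers' cells in the Nt5e difference was not tested.

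Pde7a and Crem stood near the threshold for population. Pde7a was lower in CD25High cells, at 5.73 (KO) and 7.00 (WT) when stimulated and 5.86 (KO) and 5.81 (WT) when unstimulated. In CD45High cells it read 6.75 (KO) and 7.13 (WT) when stimulated and 7.11 (KO) and 7.00 (WT) when unstimulated. The stimulated WT CD25High array lay within the range of the CD45High arrays, while the other 3 CD25High arrays lay below every CD45High array. The difference of -0.89 did not pass (SE 0.21, limma adjusted p = 0.05321), and without the WT stimulated pair it was -1.15 and passed (adjusted p = 0.0327). Crem ILMN_1242622 was higher in CD25High cells in all 4 pairs, by 0.81 (SE 0.19, adjusted p = 0.05337). It passed in 4 of 14 alternatives, among them leaving out the KO stimulated pair (0.88, adjusted p = 0.0369), and neither of the other 2 Crem probes passed in any.

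The populations did not overlap for 3 of the 11 member probes, the 2 of Nt5e and Creb1 ILMN_3120454, against 12.3% of all tested probes. Creb1 ILMN_3120454 read 5.36 to 5.69 in CD25High cells and 5.83 to 5.93 in CD45High cells, and its difference of -0.36 did not pass (SE 0.12, limma adjusted p = 0.1376). Pde4d differed by -0.31, Prkar1a by 0.06 and Pde4b by -0.08, with ranges that overlapped.

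KO and WT cells were compared for the question the study set. No member passed, and no probe of the 11047 did in limma (0% called), with 9.8% of them at an unadjusted p under 0.05 and a lowest adjusted p of 0.493. Nt5e was higher in KO cells in 4 of 4 pairs by both probes, which read the same gene on the same arrays. Over all tested probes 57.5% had a mean difference above 0, and the share higher in all 4 pairs was not counted. By ILMN_2813830 the KO and WT levels were 10.60 and 10.26 in stimulated CD25High cells, 11.35 and 11.10 in unstimulated CD25High cells, 9.14 and 8.58 in stimulated CD45High cells, and 9.18 and 9.01 in unstimulated CD45High cells. The mean difference was 0.33 (SE 0.11), and that of ILMN_2636285 was 0.45 (SE 0.15), both at a limma adjusted p of 0.4929. KO and WT arrays overlapped for all 11 member probes, while 2.99% of all tested probes did not overlap. Mean differences of the other members lay between -0.37 for Pde7a and 0.14 for a Creb1 and a Crem probe.

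The genotype difference was then compared between stimulated and unstimulated cells. Pde4d was higher in KO cells by 0.10 in CD25High and 0.35 in CD45High cells when stimulated, and was lower in KO cells by -0.93 and -0.63 in the same populations when unstimulated. Pde4b followed the same signs, with 0.58 and 0.49 in stimulated and -0.30 and -0.44 in unstimulated cells, the unstimulated values being undetected. Crem ILMN_2602899 did so too, with 0.06 and 0.40 in stimulated and -0.34 and -0.69 in unstimulated cells. The other Crem probes did not follow these signs. ILMN_1242622, the brightest, was lower in KO cells in stimulated CD25High cells as well, by -0.12. ILMN_2964986 differed by 0.005 in unstimulated CD45High cells, where it was undetected. Signs opposite to those of Pde4d held for Pde7a. It was lower in KO cells by -1.27 in CD25High and -0.38 in CD45High cells when stimulated and higher by 0.05 and 0.10 when unstimulated.

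The differences between the states were 1.00 for Pde4d (SE 0.24), 0.91 for Pde4b (SE 0.22), 0.96, 0.74 and 0.56 for the Crem probes and -0.90 for Pde7a (SE 0.35). None passed over all probes (limma adjusted p = 0.8628 for each), and 0 of 11047 probes were called. At an unadjusted p under 0.05 there were 5 of the 11 member probes and 3.66% of all probes. Opposite signs in both pairs of each state were seen in 4 of 11 member probes and in 10.5% of all probes. The early response genes varied between the same arrays: their summed level was 6306 (KO) and 7074 (WT) in stimulated and 5461 (KO) and 8395 (WT) in unstimulated CD25High cells. In CD45High cells it was 6081 (KO) and 4495 (WT) when stimulated and 5663 (KO) and 7842 (WT) when unstimulated. The WT cells thus had the higher sum in both unstimulated pairs, and its part in the member differences was not tested. Leaving out the CD45High stimulated pair brought 2003 probes past the threshold, Pde4b, Pde4d and Pde7a among them. That fit has 1 pair in the stimulated state, which is assumed to vary like the others.

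**Figure D4:**
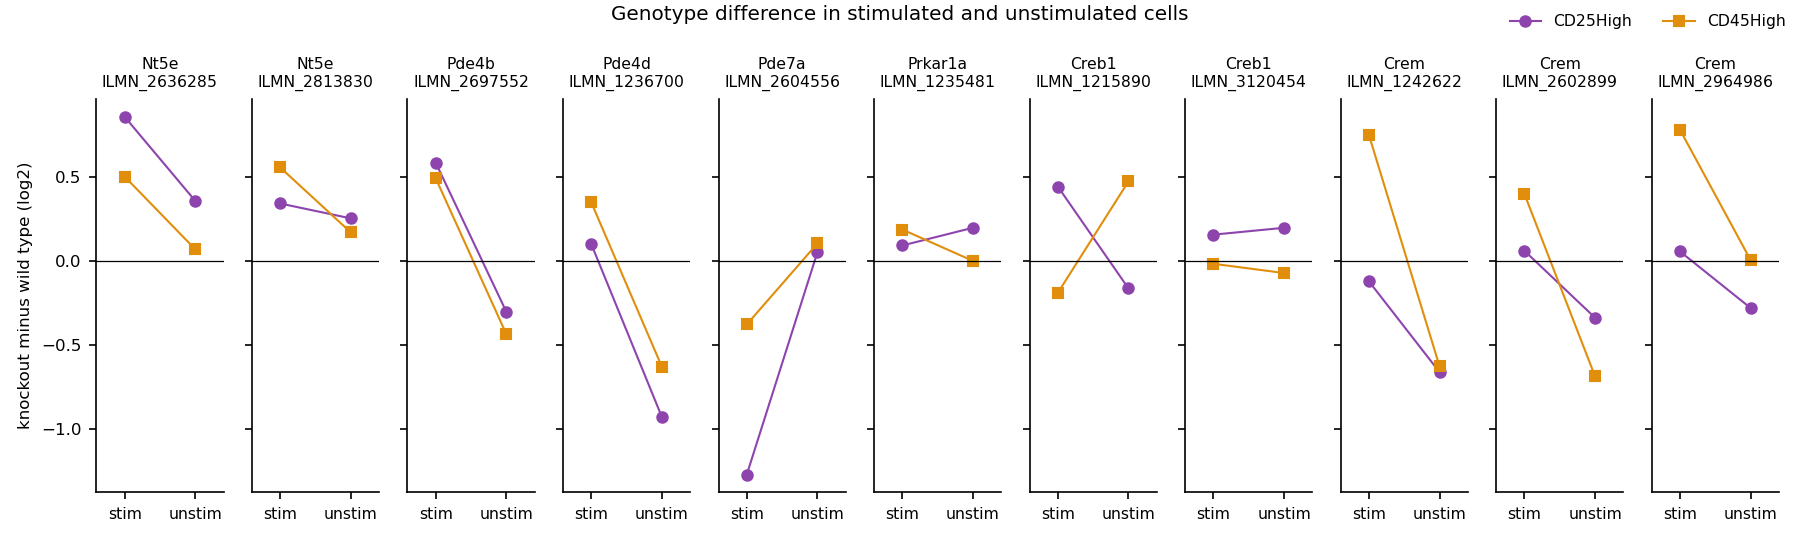
KO minus WT log2 difference of the 11 tested probes in stimulated and unstimulated cells, with a line for CD25High (purple) and one for CD45High cells (orange). Pde4b and Pde4d lay above 0 in both stimulated pairs and below 0 in both unstimulated pairs, and Pde7a lay the other way round.

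The response to stimulation was compared between the populations in the same way. It was larger in CD25High cells for Crem by 0.50, 1.11 and 0.68 by its 3 probes and for Pde4d by 0.76. The Crem probe at 0.68 was not detected on either unstimulated CD45High array. Creb1 gave 0.90 and 0.10 by its probes and Pde7a 0.65. The other members went the other way, Nt5e by -0.47 and -0.56, Prkar1a by -0.23 and Pde4b by -0.21. No member and no probe of the 11047 passed in limma, at a lowest adjusted p of 0.296. At an unadjusted p under 0.05 there were 2 of the 11 member probes and 9.48% of all probes. Without the WT CD25High pair 2011 probes passed, with Pde4d at 1.27 (adjusted p = 0.0174), Crem ILMN_2602899 at 1.31 and Creb1 ILMN_1215890 at 1.21 among them, and without the KO CD25High pair 204 did, with Pde7a at 1.31 (adjusted p = 0.0308). Either fit has 1 CD25High pair, which is assumed to vary like the CD45High pairs, and without either CD45High pair 0 probes passed. For the genotype difference between the populations no member passed, with 0 of 11047 probes called, 3.6% at an unadjusted p under 0.05 and a lowest adjusted p of 0.824. Without the CD25High unstimulated pair 1772 probes passed, with Pde7a at -1.14 (adjusted p = 0.0143). That fit again has 1 CD25High pair, whose spread is taken from the CD45High pairs, and 0 probes passed when any one of the other pairs was left out.

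A wider list of 104 adenosine and cyclic AMP genes, including the members, was read by the brightest tested probe of each gene. Of these, 93 had a probe and 55 were tested. With stimulation 4 rose and 5 fell, which is 16.4% of the list and near the 16% of all probes, so the share called is not a result about the list. Its median difference was -0.14, against -0.002 over all probes. Besides Crem the genes that rose were Adk, Pde4a and Ptger2.

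Adk, the kinase that returns adenosine to AMP inside the cell, read 11.22 to 12.13 in stimulated and 9.73 to 9.84 in unstimulated cells, and rose by 1.79 (SE 0.17, limma adjusted p = 0.006282). Pde4a, another member of the family of Pde4b and Pde4d, rose by 0.77 (adjusted p = 0.03579), and Ptger2, a prostaglandin E2 receptor that raises cyclic AMP, rose by 0.68 (adjusted p = 0.02223). Ptger2 was not detected on either unstimulated CD45High array, so its rise is taken partly against background, and in CD25High cells it read 7.02 (KO) and 6.44 (WT) when stimulated and 6.13 (KO) and 5.80 (WT) when unstimulated. Ampd1, an AMP deaminase, read 4.99 to 7.52 in stimulated and 7.69 to 9.44 in unstimulated cells, and fell by 2.13 (SE 0.23, limma adjusted p = 0.007475). Adcy7, an adenylate cyclase found in blood cells, fell by 1.52 (adjusted p = 0.02844), with its lowest level, 5.02, on the stimulated KO CD25High array. Akap12, which anchors protein kinase A, fell by 1.04 and Dpp4, the surface peptidase CD26 that binds adenosine deaminase in humans, fell by 0.82. Of the 9 calls, 0 remained without the WT CD25High pair and 2 genes of the list passed without the KO CD45High pair, while 14 passed without the KO CD25High pair, which holds the array that stood apart.

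Between the populations 2 genes of the list were higher and 5 lower in CD25High cells, 12.7% against 8.29% of all probes. The list is counted by genes and the background by probes, so these shares do not compare like with like. By the mean of a gene's probes, 846 of 8104 genes were called, and 9 genes of the list. The share called is therefore not read as a result about the list. Its median difference was -0.08, against -0.03 over all probes. Ptger2 was higher beside Nt5e. It read 5.80 to 7.02 in CD25High and 4.31 to 5.05 in CD45High cells, where 2 of 4 arrays detected it, with a difference of 1.63 (SE 0.15, limma adjusted p = 0.0026). Ampd1 was lower by -1.56 (adjusted p = 0.03015) and Adcy7 by -1.44 (adjusted p = 0.04296). Rapgef4, which encodes the exchange factor Epac2 that cyclic AMP activates directly, read 5.23 to 5.67 in CD25High and 6.31 to 6.77 in CD45High cells and was lower by -1.11 (SE 0.11, adjusted p = 0.004029). Vipr1, a receptor for vasoactive intestinal peptide, was detected on no CD25High array and on 3 of 4 CD45High arrays. By group means it was at least 1.52-fold lower in CD25High cells (limma adjusted p = 0.01609 for the measured difference of -1.11). Without single pairs the count of called genes was 3 to 10. For genotype 0 of the 55 were called.

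**Figure D5:**
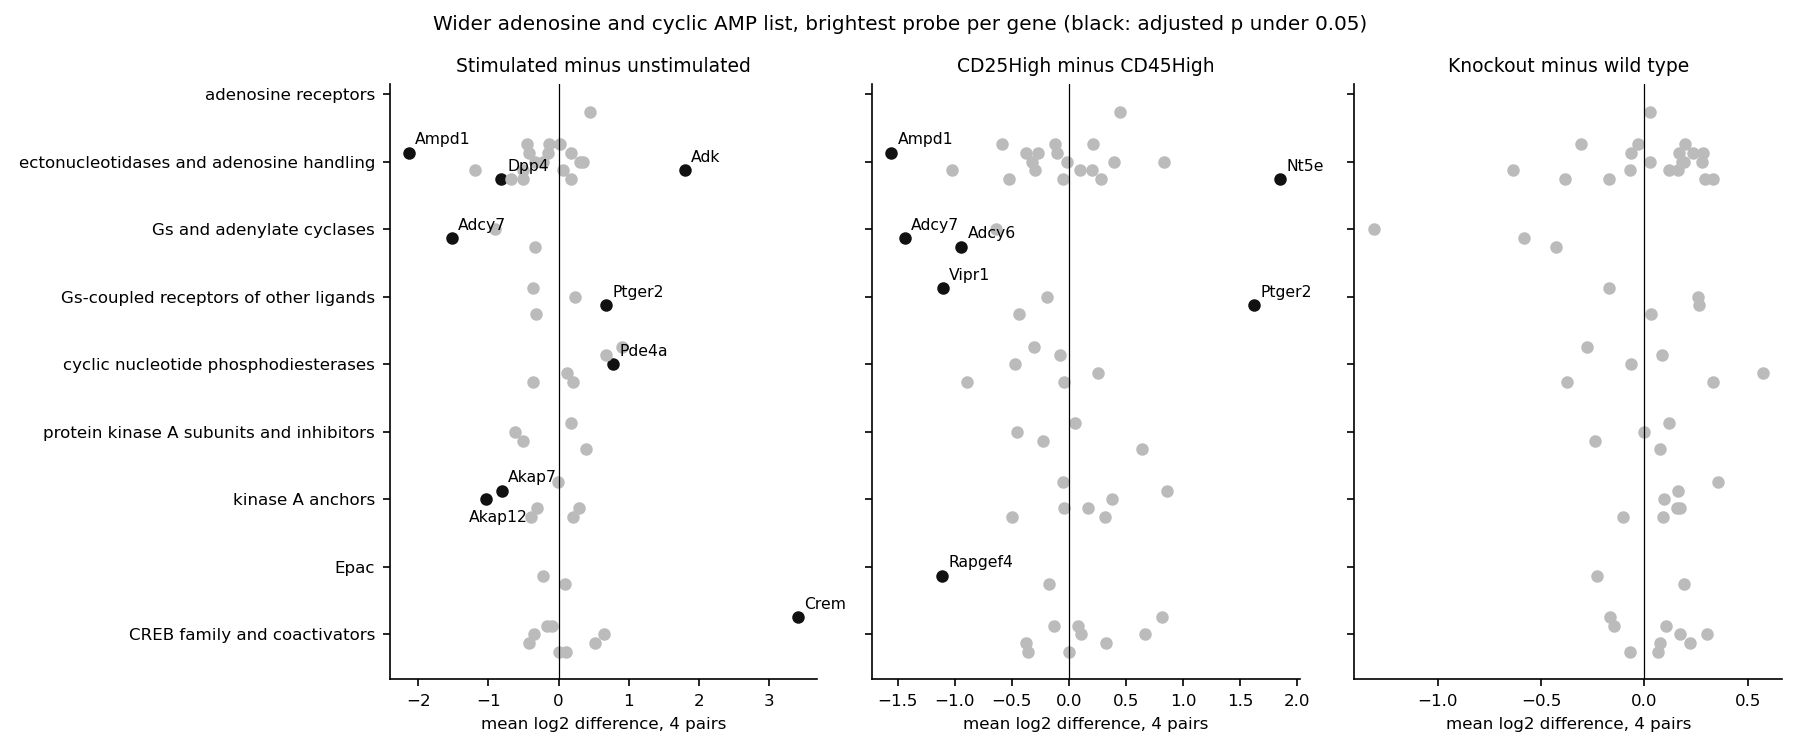
Mean log2 difference over 4 pairs of the 55 tested genes of the wider list, by role, for stimulated minus unstimulated, CD25High minus CD45High and KO minus WT; black points passed the test and carry the gene name. Crem at 3.40 and Ampd1 at -2.13 mark the ends for stimulation, and Nt5e at 1.85 and Ampd1 at -1.56 for population.

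Genes with a course like that of a member were sought among 4985 tested probes that spanned over 1 log2 unit, by Pearson correlation over the 8 arrays. These values describe 8 points that share their arrays and normalization, and they carry no test. Crem was most like Spag9 (r = 0.994), Atl3 (0.989) and LOC100047707 (0.988), and Nt5e most like Espn (0.989), F2r (0.986) and Nrp1 (0.984), a regulatory T cell marker. Pde4d was most like Ptbp3 (0.964), Fam83e (0.956) and Dbf4 (0.954). Pde4b was most like BC057893 (0.974), Frat2 (0.970) and Cmas (0.956), although 4 of its 8 values were undetected. Pde7a had the lowest values of these 5 members, with Ramp3 (0.941), Adh1 (0.940) and Cdc34 (0.915).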

How the data were processed

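The authors' deposited non-normalized table gives, per the file headers, for each probe and array the mean intensity over its beads (linear), its standard error, a bead count and a detection p-value. A second deposited table has log2 values for 14533 probes, and these match the values computed here (lowest correlation 0.999999, largest difference 0.0626), with column medians of 5.81. The submitters' processing notes name limma. No probe positions or chip identifiers are given in the sources used here.

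Log2 values were computed with neqc of limma 3.58.1 in R 4.3.3 (offset 16, quantile normalization). Detection at p under 0.01 was required on at least 2 of the 8 arrays, and the 11047 probes that met it entered lmFit and eBayes, with Benjamini-Hochberg adjustment over all of them and a threshold of 0.05. Groups came from the labels. Matched combinations entered as blocks, since the labels are factorial. Pair differences correlated across probes at 0.33 to 0.72 (stimulation), 0.387 to 0.813 (population) and 0.0255 to 0.419 (genotype). The comparisons left 3 residual degrees of freedom, and their differences 2. The test was tried on simulated data.

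The members and lists were chosen with earlier results of these data known. Named genes were all members, up to 4 called genes of the wider list per direction, and 3 nearest patterns per member. Symbols were matched to the GRCm38.p6 gene table, 20733 as current and 3872 as older symbols, with 1092 not matched. The tables were used whole. Alternatives changed background correction, offset, scaling, filter, block, variance trend, probe summary and the pairs used.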

Additional observations from a re-analysis of the deposited data

Results flagged for a closer look

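In 6 instances both pairs of one state or population lay on one side of 0 and both pairs of the other on the opposite side. The difference itself did not pass the limma test over all probes in any of them. Among the tested probes, 7.95% showed this for the stimulation response by population, 9.67% for genotype by population and 10.5% for genotype by stimulation.

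For the genotype difference, stimulated minus unstimulated, Pde4d gave 1.0049 (SE 0.2441), Pde4b 0.9085 (SE 0.2179), Crem ILMN_2602899 0.7425 (SE 0.2604) and Pde7a -0.9036 (SE 0.3502), each at a limma adjusted p of 0.863. Pde4b was undetected on all 4 unstimulated arrays, so 4 of its 8 values are background. Creb1 ILMN_1215890 had a stimulation response that was 0.9044 larger in CD25High than in CD45High cells (SE 0.3493, limma adjusted p = 0.512), and 1 of its 8 values was undetected. Creb1 ILMN_3120454 had a genotype difference that was 0.2215 larger in CD25High than in CD45High cells (SE 0.2299, limma adjusted p = 0.845).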

How the results depend on the processing

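Of the member genes, each read by its brightest tested probe, 1 was called for stimulation. The additive model without the replicate block gave 2, and leaving out 1 pair gave 0 to 2. For population 1 was called. Cyclic loess, median scaling and the mean of a gene's probes gave 2 each, the filter of detection on all 8 arrays gave 3, and leaving out 1 pair gave 1 to 2. For genotype no alternative called a member. Leaving out 1 pair gave 0 to 1 member genes for the stimulation response by population, 0 to 1 for genotype by population and 0 to 3 for genotype by stimulation. The 9 calls of the wider list for stimulation were 5 without a filter and 0 to 14 with 1 pair left out, and its 7 calls for population were 3 without a filter and 3 to 10 with 1 pair left out. Without a filter 1162 of 25697 probes were called for stimulation, against 1771 of 11047, and 558 against 916 for population. With 1 pair left out the counts over all probes were 0 to 2515 for stimulation and 231 to 1335 for population, the 0 being without the WT CD25High pair. For genotype they were 0 to 1. No called result changed sign. Of the single-probe results, 603 kept direction and side of the threshold under another processing and stayed within the spread of the pairs or stayed called, 5 newly passed, and 34 uncalled ones moved, 19 of them to the other sign. With a pair left out 194 did, 11 newly passed, 56 uncalled ones moved, 33 of them to the other sign, and the 3 that lost the call were the Crem probes for stimulation without the WT CD25High pair. The chip as a block was not run, since no chip is named. Probes near the detection limit, such as Pde4b, Adora2a and Pde3b, are limited by signal over background.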
